A study of Mus musculus with 10 samples.

Results

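The genes described here are 36 genes of antigen presentation, chosen by symbol: 22 of the class I pathway, 11 of the class II pathway and 3 costimulation genes. All 36 of the 36 were found among the 22064 genes of the sorted-cell tables, and 27 of the 36 among the 19333 genes of the oligodendrocyte precursor cell (OPC) table. The study sequenced RNA from 10 mouse libraries. OPCs, the progenitors of myelinating oligodendrocytes, were purified by immunopanning and grown for 3 days with PDGFAA, with 3 libraries from Apc-fl/fl littermates (here wild type) and 3 from Olig2-Cre:Apc-fl/fl mice. In the latter, Cre recombinase made in Olig2-expressing cells deletes Apc, a brake on Wnt and beta-catenin signalling. A further 4 libraries are of cells sorted from spinal cord after 18 days of EAE (experimental autoimmune encephalomyelitis, which models multiple sclerosis in mice), all from the genotype Pdgfra-CreER:Apc-fl/fl. Of these, 3 hold CD11b+Gr-1+NK1.1+ cells that the submitters call cytotoxic macrophages, and 1 holds CD4+ cells labelled Th1. All 4 sorted libraries carry the same alleles, the labels give no tamoxifen treatment or age, and separate animals are named for none of the macrophage libraries. Spreads between them may therefore be technical. The column codes of the macrophage files match no label, so these libraries are called A, B and C here.

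MHC class I molecules show peptides made inside the cell to CD8 T cells, while class II molecules show peptides from engulfed material to CD4 T cells. A class I molecule is a heavy chain paired with beta-2 microglobulin (B2m), filled with peptides that the proteasome cuts and the TAP transporter carries into the endoplasmic reticulum. A class II molecule is an alpha and a beta chain that travel with the invariant chain Cd74 to endosomes, where proteases cut Cd74 away and the H2-DM chaperone helps load the peptide. Class II is best known from dendritic cells, B cells and macrophages, and costimulatory ligands give T cells the second signal they need for activation. Interferon gamma raises both pathways, through the regulators Nlrc5 for class I and Ciita for class II.

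Of the 36 genes, 20 lie on chromosome 17 between positions 33915899 and 37274484 of GRCm38, the mouse MHC region, and 16 lie elsewhere. B2m lies on chromosome 2 at 122147686 to 122153083. Psmb9 (34181987 to 34187764, minus strand) and Tap1 (34187553 to 34197225, plus strand) overlap at one end, and without stated strand counting the reads in the overlap cannot be told apart.

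Promoters of both pathways are known to carry a Y box, the binding sequence of NF-Y, which works there together with RFX factors. The 150 bases before the RefSeq start site (GRCm38.p6, gene strand) are shown for 4 genes that the results below turn on, chosen with their values known, with capitals marking ATTGG on either strand. H2-Aa lies at chr17:34287824-34287973 (minus strand), H2-Eb1 at chr17:34305717-34305866 (plus), H2-D1 at chr17:35262944-35263093 (plus) and B2m at chr2:122147537-122147686 (plus).
H2-Aa: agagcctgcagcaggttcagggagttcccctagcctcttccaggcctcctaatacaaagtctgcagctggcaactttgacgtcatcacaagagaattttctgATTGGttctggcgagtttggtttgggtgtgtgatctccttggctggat
H2-Eb1: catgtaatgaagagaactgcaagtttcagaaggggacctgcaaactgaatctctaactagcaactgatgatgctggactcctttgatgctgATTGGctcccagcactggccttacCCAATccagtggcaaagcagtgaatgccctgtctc
H2-D1: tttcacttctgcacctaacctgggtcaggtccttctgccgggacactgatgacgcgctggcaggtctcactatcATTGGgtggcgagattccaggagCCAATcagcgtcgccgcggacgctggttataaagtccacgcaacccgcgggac
B2m: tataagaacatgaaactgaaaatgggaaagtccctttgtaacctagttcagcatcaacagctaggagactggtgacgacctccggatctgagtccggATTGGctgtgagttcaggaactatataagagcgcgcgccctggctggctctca
The match begins 48 bases before the start in H2-Aa and 53 in B2m. H2-Eb1 has 1 match on each strand, beginning 59 and 35 bases before the start, and H2-D1 has 1 on each strand, 76 and 53 bases before it. ATTGG was present on either strand in 19 of the 32 promoters of these genes, against 24.495% of 32851 promoters of the same length. Counted by gene, it was present in 18 of the 29 genes with a promoter in the table. GAAANNGAAA, the core of interferon response elements, was present in 3 of 32 promoters (B2m, Ctss and H2-T23) against 1.586%. TTCNNNGAA, the gamma-activated site, was present in 1 of 32 (Psmb8) against 4.091%. A match describes these letters and does not show binding.

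The macrophage libraries held 23174908, 23564215 and 23474168 estimated reads in the order A, B, C, and the library labelled Th1 held 3051730. Neutrophil markers summed to 435276 ± 1605 TPM in the macrophage libraries (SD, n = 3), which is 43.5% of the total. Macrophage and monocyte markers summed to 34113 ± 284 TPM in them. The 9 NK cell markers summed to 27.7 ± 0.682 TPM, with 3 at 1 TPM or more. These were Nkg7 at 16.6, Gzma at 8.79 and Klrk1 at 1.35 TPM, while Klrb1c, which encodes NK1.1, stood at 0.05 to 0.10 TPM. In the library labelled Th1, 13 of 14 T cell markers were at 0, Cd3e, Cd3d and Cd4 among them, and Lck had 422 reads. Neutrophil markers summed to 25190 TPM there and macrophage and monocyte markers to 11675 TPM, of which Lyz2 made up 11006, while Ly6c2, Ccr2 and Plac8 were at 0. The labels macrophage and Th1 are both kept only as names. TPM are read counts corrected for gene length and scaled to a common sum.

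In the macrophage libraries both pathways were present nearly throughout, with 34 of 36 genes at a mean of 1 TPM or more. Nlrc5, the class I regulator, stood at 0.99 ± 0.05 TPM, and H2-Ob at 0.12, 0.19 and 0.32 TPM. The class I genes summed to 7218 ± 16.6 TPM, the class II genes to 3024 ± 39.4 TPM and the costimulation genes to 11.2 ± 0.252 TPM (SD, n = 3). The 3 libraries lay close together, with a median coefficient of variation of 2.02% and a maximum of 11.3% over the 34 genes with 100 or more reads. Between libraries, the chi-square per gene was 1.29 to 2.53, where 1 is counting noise, over 11019 to 11058 genes with 20 or more reads.

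**Figure D1:**
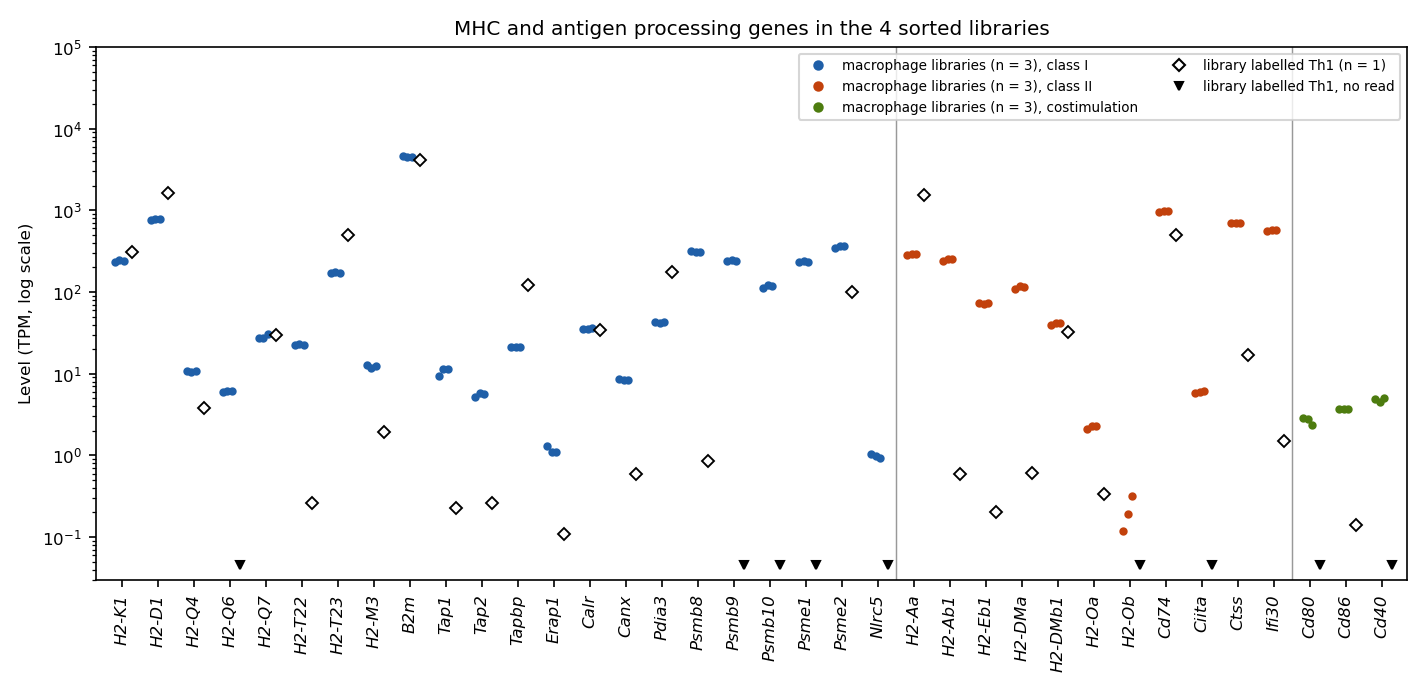
Level of each of the 36 genes in TPM on a log axis, with 3 filled points for the macrophage libraries A, B and C, an open diamond for the library labelled Th1 and a triangle on the bottom line where that library has no read. The macrophage points lie close together for nearly every gene, while the single library stands near them for B2m and Cd74 and far below them for most immunoproteasome genes.

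Among class I heavy chains, the classical genes led in the macrophage libraries. H2-D1 stood at 756, 783 and 779 TPM in libraries A, B and C, and H2-K1 at 236, 244 and 243 TPM, a ratio of 3.20 ± 0.00277 in favour of H2-D1. Library A was the lowest of the 3 for both. H2-T23, which encodes Qa-1, a non-classical molecule read by NK receptors, stood at 170, 178 and 173 TPM. The other non-classical genes were lower, from 28.4 ± 1.93 TPM for H2-Q7 through 22.7 ± 0.267 for H2-T22, 12.3 ± 0.415 for H2-M3 and 10.6 ± 0.209 for H2-Q4 to 6.11 ± 0.0902 for H2-Q6. B2m, the light chain shared by all of them, stood at 4593, 4525 and 4558 TPM and ranked 28 among all genes. It made up most of the class I sum: all 8 heavy chains together came to 1268 ± 23.2 TPM.

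Heavy chain genes resemble each other, and the authors' estimated counts are not whole for all 8 of them, as for 15 of the 36 genes in all. Of the windows of 100 bases in their transcripts, 11.98% of H2-Q7, 10.8% of H2-Q6 and 8.86% of H2-T22 also occur in another gene, against 3.59% of H2-D1 and 0.96% of H2-K1. H2-T23 shares 3.15% and H2-Q4 2.16%. The values of H2-Q7, H2-Q6 and H2-T22 are therefore less certain than those of H2-D1 and H2-K1. Psme2 shares 18.4% of its windows, mostly with Psme2b, and H2-DMb1 shares 11.3%, mostly with H2-DMb2.

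Of the genes for peptide supply to class I, those of the immunoproteasome stood at high RNA levels and those of the transporter at low ones. Psmb8, Psmb9 and Psmb10, the catalytic subunits that replace the constitutive ones under interferon, stood at 312 ± 6.73, 242 ± 5.04 and 117 ± 4.48 TPM. Each exceeded the constitutive subunit it replaces, with ratios of 2.09, 1.96 and 2.02 for Psmb8 over Psmb5, 1.70, 1.73 and 1.74 for Psmb9 over Psmb6, and 1.51, 1.58 and 1.59 for Psmb10 over Psmb7. The immunoproteasome form was above the constitutive form in all 3 libraries for all 3 pairs. Psme1 and Psme2, the subunits of the PA28 activator, stood at 235 ± 3.56 and 359 ± 13.1 TPM.

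Tap1 and Tap2, the chains of the peptide transporter, stood far lower, at 9.30, 11.5 and 11.3 TPM and at 5.14, 5.88 and 5.63 TPM. Library A was the lowest for both, and Tap1 exceeded Tap2 by 1.92 ± 0.101 times. Of the loading complex, the disulfide isomerase Pdia3 stood at 42.8 ± 0.606 TPM, the chaperone Calr at 35.8 ± 0.438, tapasin (Tapbp) at 21.3 ± 0.0231 and the chaperone Canx at 8.45 ± 0.135. Erap1, the aminopeptidase that trims peptides in the endoplasmic reticulum, was near the lower end at 1.16 ± 0.11 TPM.

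On the class II side, Cd74 led with 961, 982 and 977 TPM and ranked 129 among all genes. Ctss, the protease that cuts Cd74, followed with 706, 706 and 709 TPM, and Ifi30, the endosomal thiol reductase GILT, with 560, 580 and 575 TPM. The chains H2-Aa (alpha) and H2-Ab1 (beta) of the I-A molecule stood at 282, 290 and 288 TPM and at 240, 254 and 255 TPM, a near-even ratio of 1.15 ± 0.0244. H2-Eb1, the beta chain of the other class II molecule, was lower at 73.5 ± 1.15 TPM. The DM chaperone genes H2-DMa and H2-DMb1 stood at 113 ± 4.32 and 40.8 ± 1.28 TPM. H2-Oa and H2-Ob, which encode the DM inhibitor found mainly in B cells, stood at 2.22 ± 0.101 and 0.21 ± 0.101 TPM. The regulator Ciita stood at 5.81, 5.91 and 6.06 TPM.

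The 3 costimulation genes stood together at the low end. Cd40, which binds the CD40 ligand of T cells, stood at 4.92, 4.55 and 5.02 TPM. Cd86 and Cd80, the ligands of CD28, stood at 3.72, 3.72 and 3.71 TPM and at 2.87, 2.78 and 2.37 TPM. No costimulation gene reached the level of any class II chain gene in any library. Of 7 other costimulatory and inhibitory ligands, 2 reached 1 TPM, with Tnfsf9 highest at 4.76 ± 0.03 TPM.

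Neutrophil markers made up 43.5% of the total in the macrophage libraries, and macrophage and monocyte markers 3.41%. Beside these, the libraries held few transcripts of dendritic cell and B cell markers. Dendritic cell markers summed to 17.4 to 19.4 TPM, of which Batf3 and Siglech made up nearly all, while Flt3, Zbtb46, Itgax, Xcr1 and Clec9a were each under 1 TPM. B cell markers summed to 6.02 to 6.70 TPM, led by Cd79b at 4.40 ± 0.21 TPM. Microglia markers summed to 144 to 150 TPM. In bulk libraries such as these, a few cells with much RNA of a gene and many cells with little cannot be told apart, and which cells carry the class II RNA was not tested.

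Other genes of the pathway, from lists of related genes, were present as well. The interferon gamma response genes summed to 199 ± 1.74 TPM, with all 7 at 1 TPM or more by mean. The RFX and NF-Y subunits summed to 18.3 ± 0.585 TPM, with 4 of 6 at 1 TPM or more. Of the other endosomal proteases, Ctsb was highest at 137 ± 1.01 TPM, below Ctss in every library.

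The library labelled Th1 held a broken set of these genes: 18 of the 36 had more than 3 reads, 9 had 1 to 3 reads and 9 had none. The class I genes summed to 7011 TPM, the class II genes to 2102 TPM and the costimulation genes to 0.14 TPM. B2m stood at 4090 TPM (9464 reads), H2-D1 at 1634 TPM (8399 reads) and H2-K1 at 312 TPM (1505 reads). H2-Aa stood at 1550 TPM with 4935 reads, Cd74 at 499 TPM with 1741 reads and H2-T23 at 502 TPM with 1969 reads. These genes were abundant in the single library, and H2-D1, H2-K1, H2-Aa and H2-T23 were above all 3 macrophage libraries in TPM. As a share of reads, which is not corrected for length, H2-K1 was below them, at 0.711 times their level.

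Several partners that the macrophage libraries held in near-fixed ratios came apart in it. H2-Aa had 4935 reads and its partner H2-Ab1 had 2, a TPM ratio of 2628 against 1.13 to 1.18 in the macrophage libraries. H2-DMb1 had 121 reads and H2-DMa 5.27 estimated reads, a ratio of H2-DMa to H2-DMb1 of 0.0186 against 2.75 to 2.82. Psme2 had 213.55 estimated reads and Psme1 none, where 1090 were expected at the macrophage share of reads. Psmb6, a constitutive subunit, had 894 reads and its replacement Psmb9 none. The ratio of Calr to Canx was 57.1 on 199 and 8 reads, against 4.12 to 4.35. Other pairs moved less, with H2-D1 over H2-K1 at 5.23 against 3.20 and H2-K1 over B2m at 0.0764 against 0.0529 ± 0.00134.

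**Figure D2:**
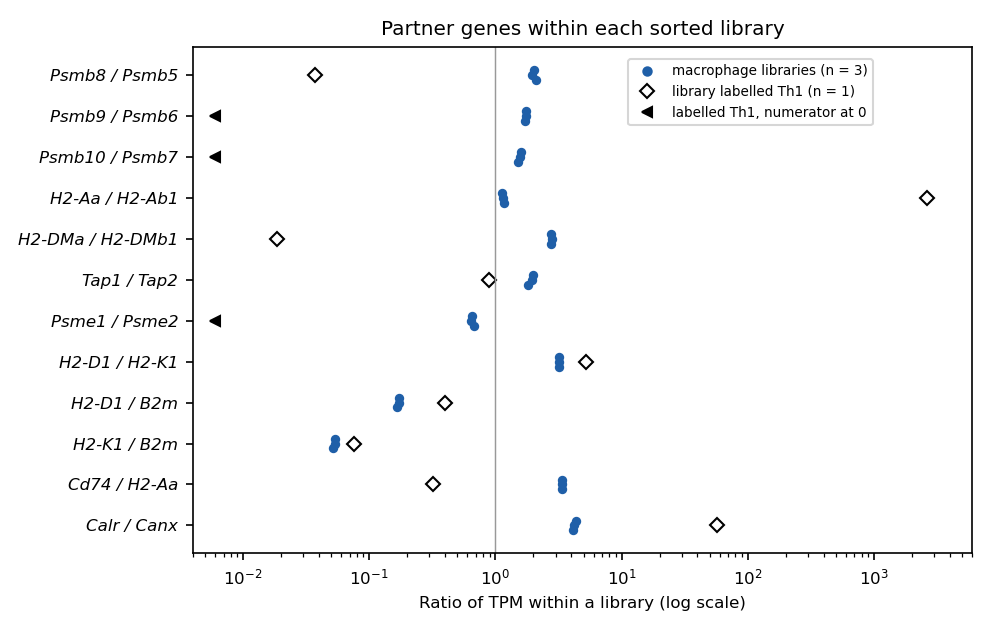
Ratio of TPM for 12 pairs of partner genes within each sorted library on a log axis, with filled points for the 3 macrophage libraries, open diamonds for the library labelled Th1 and a left-pointing triangle where its numerator gene has no read. The macrophage points of each pair lie together, while the single library stands apart for several pairs, among them H2-Aa over H2-Ab1 at 2628 against 1.15, and stays close for H2-K1 over B2m.

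Genes with few or no reads were also frequent outside antigen presentation. Among all genes for which the macrophage share would give 100 or more reads in the library labelled Th1, 1166 of 2391 (48.77%) had at most 3. The antigen presentation genes gave 9 of 26 (34.62%), with 6 of 17 for class I and 3 of 9 for class II. How these absences arose was not tested.

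**Figure D3:**
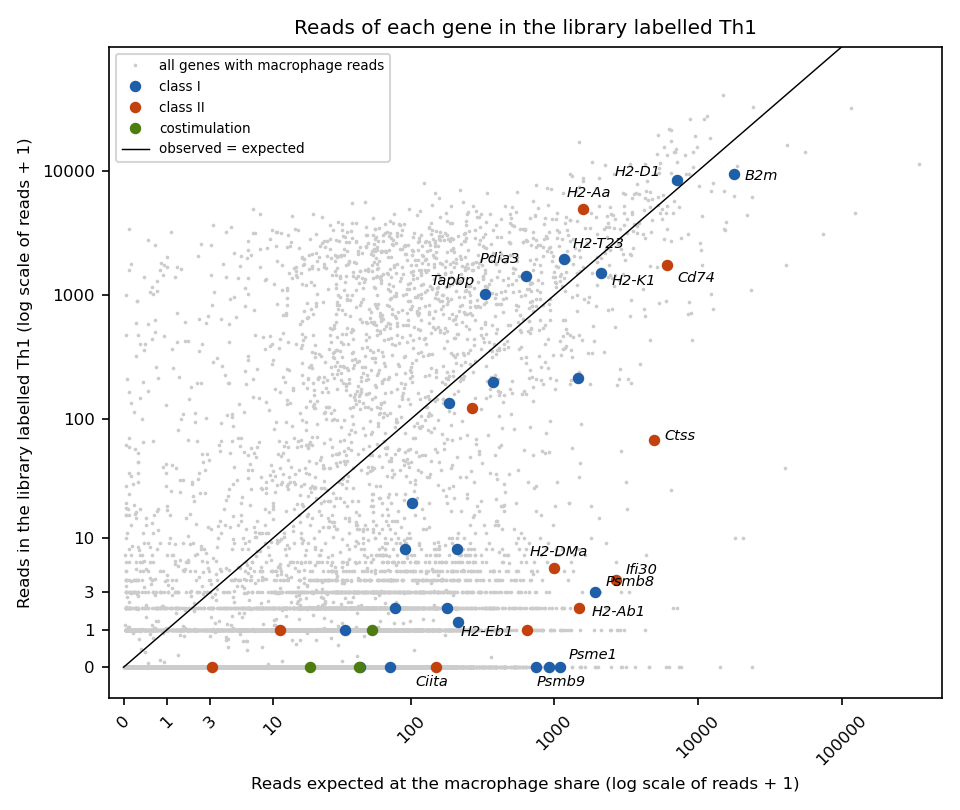
Reads of each gene in the library labelled Th1 against the reads expected at its mean share in the macrophage libraries, both as log of reads + 1, with all genes in grey, the 36 genes coloured by pathway and the diagonal marking equal shares. Most of the 36 lie below the diagonal, some of them on the line of 0 reads, and H2-Aa, Tapbp and Pdia3 lie above it among many grey points.

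In the test of the library labelled Th1 against the macrophage libraries (edgeR quasi-likelihood test, adjusted p under 0.05 and at least 4-fold), 4 of the 36 genes were higher and 20 lower. Over all genes tested the same rule called 13.7% higher and 54.6% lower, so the shares of 11.1% and 55.6% among the 36 were near the background by this rule. The median log2 difference was -3.98 over the 36 and -5.61 over all genes. With genes without a read placed at the floor of 3 reads, these medians were -2.35 and -0.95. With DESeq2 size factors, 9 of the 36 were called higher and 17 lower (17.6% and 30.1% of all genes), and with total counts 0 and 24 (9.59% and 71.3%). At a fold minimum of 2, 7 were higher and 22 lower (15.9% and 56.5% of all genes), and with the DESeq2 Wald test 9 were higher and 15 lower (16.9% and 21.7%). The spread in this test comes from the macrophage libraries alone, so it compares these libraries and not the cell types.

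The 4 genes called higher were H2-Aa, Tapbp, Pdia3 and H2-T23. H2-Aa was higher by 3.13 on the log2 scale (edgeR adjusted p = 5.8e-27), Tapbp by 3.15 (adjusted p = 2.5e-22), Pdia3 by 2.68 (adjusted p = 2.8e-22) and H2-T23 by 2.25 (adjusted p = 7.5e-22). All 4 kept this direction under each scaling, but with total counts alone none was past 4-fold, at 1.63, 1.65, 1.19 and 0.76. H2-D1 also kept its direction, at 1.73 by TMM and 0.24 by total counts, and was not called. For 8 genes the direction itself depended on the scaling, so none is given: H2-K1, H2-Q4, H2-Q7, B2m, Psme2, Calr, H2-DMb1 and Cd74. For B2m, for example, the log2 difference was 0.58 by TMM, 2.10 by DESeq2 size factors and -0.92 by total counts. The scaling moved the median of all genes from -5.61 by TMM to -4.32 by DESeq2 size factors and -6.25 by total counts.

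Among the genes called lower were Psmb8, Psmb9, Psmb10 and Psme1 of the immunoproteasome and activator list, while Psme2 was not. Each of these 4 had at most 3 reads, where 1912, 921, 748 and 1090 were expected at the macrophage share of total counts. Of all genes, 70.93% with 10 or more expected reads and 48.77% with 100 or more had at most 3. These 4 lie far above both limits, and the share among genes of their level was not taken. Psmb9, Psmb10 and Psme1 had no read, and were at least 38.1-fold, 30.9-fold and 45.1-fold lower at the floor of 3 reads in the single library, the smallest bound over the scalings. Psmb8 had 3 reads, a ratio to the macrophage libraries of 0.00442 by TMM (95% exact Poisson interval 0.000912 to 0.0129). Ratios and intervals here and below are by TMM alone, unlike the bounds for genes without a read. They would be larger with DESeq2 size factors and smaller with total counts. In TPM these 4 genes were below every macrophage library.

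Of the class II genes, 6 of 11 were called lower, a share near the 54.6% of all genes. H2-Ab1 had 2 reads, a ratio of 0.0038 (interval 0.000461 to 0.0137), and H2-Eb1 had 1 read, a ratio of 0.00435 (interval 0.00011 to 0.0242). Ciita had no read and was at least 6.18-fold lower. H2-DMa was lower by 6.14 on the log2 scale (value -6.14, edgeR adjusted p = 6.1e-16), Ifi30 had 4 reads (log2 difference -7.88, edgeR adjusted p = 5.5e-21) and Ctss had 67 (log2 difference -4.70, edgeR adjusted p = 1.2e-22). While both I-A and I-E beta chain genes and the regulator were at 2 reads or fewer, the alpha chain gene H2-Aa and the invariant chain gene Cd74 were among the most read of the 36.

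The transporter and trimming genes were called lower on few reads. Tap1 and Tap2 had 2 reads each, ratios of 0.0319 (interval 0.00386 to 0.115) and 0.0738 (interval 0.00893 to 0.267). Erap1 had 1 read, a ratio of 0.0841 (interval 0.00213 to 0.469), and Canx had 8, a log2 difference of -3.20 (edgeR adjusted p = 3.6e-09). The ratios and intervals of Tap1, Tap2 and Erap1 are by TMM and would lie higher with DESeq2 size factors. Erap1 and Canx lost the call with DESeq2 size factors, at -2.05 and -1.69.

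Among the remaining genes called lower, H2-T22 had 1.32 estimated reads, a ratio of 0.0133 (interval 0.000336 to 0.0739). H2-Q6 and Nlrc5 had none and were at least 2.90-fold and 1.79-fold lower. The 3 costimulation genes had at most 1 read each. Of all genes with 10 or more reads expected at the macrophage share, 70.93% had at most 3. Cd86 had 1 read, a ratio of 0.0539 (interval 0.00137 to 0.300), Cd40 had none and was at least 1.76-fold lower, and Cd80 had none, with no bound above 1 under DESeq2 size factors and no call with them. By TMM, H2-M3, H2-Oa and H2-Ob were not called in either direction, with 8.04, 1 and 0 reads.

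Related genes outside the 36 were split in the same library. The other endosomal proteases Ctsb, Ctsd, Ctsl and Lgmn were higher by 3.78, 4.36, 2.04 and 5.60 on the log2 scale by TMM. They had 6937, 9402, 337.91 and 3045 reads. By total counts Ctsl stood at 0.55. The macrophage and monocyte marker list was itself split there: its sum was lower, at 11675 against 33841 to 34408 TPM, with 3 of 12 markers (Ly6c2, Ccr2 and Plac8) at 0, and 6 more below the macrophage libraries. The other 3 were above them, Ms4a7 at 394 against 3.91 to 4.07 TPM, Adgre1 at 81.6 against 7.63 ± 0.176 TPM and Fcgr1 at 167 against 25.2 ± 0.277 TPM. Their part in the result was not tested. Against 54.6% of all genes called lower, all 7 interferon gamma response genes were, with 3 reads each for the receptor chain gene Ifngr2 and the factor gene Irf8 and 6 for Irf1. By the same rule 5 of 6 RFX and NF-Y genes were called lower, Rfxap, Nfyb and Rfxank at 0 reads and Nfyc at 1. Of 10 other class I and class I-like genes tested, H2-Q2 and H2-T24 were called higher, with 16.2 and 834.52 estimated reads, and 5 were called lower, H2-Q10, Hfe, Fcgrt and Cd1d1 among them. Psme3, the nuclear proteasome activator, was called higher by 4.98 and Psmb7 lower by 4.29 on the log2 scale (values 4.98 and -4.29). Of 3 other class II genes tested, March1 and H2-DMb2 were called lower, and of 4 other ligands tested, Tnfsf9, Icosl and Cd274 were. With DESeq2 size factors, where 30.1% of all genes were lower, the counts called lower fell to 5 interferon gamma response genes, 4 RFX and NF-Y genes, 2 class I-like genes, 1 other class II gene and 1 ligand.

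In the OPC cultures the question was whether loss of Apc moved these genes. Apc itself stood at a log2 fold change of -0.14 (SE 0.130) in the authors' deposited table, a count over the whole gene that can include reads outside the deleted part and so does not check the deletion. The direction was read from Wnt targets such as Notum, at 4.90 (SE 0.488) in the authors' deposited table. The authors' deposited table listed 27 of the 36 genes and called none of them, where 0.548% of all 19333 genes passed its adjusted p of 0.05. The genes it does not list are H2-Q4, H2-Q6, H2-Q7, H2-T23, Nlrc5, H2-Aa, H2-Oa, H2-Ob and Ciita. At an unadjusted p under 0.05 the authors' deposited table held 2 of the 27 (7.41%), against 3.63% of all genes. It gives 1 mean over the compared libraries and no values per library, so the genotypes cannot be compared library by library.

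Levels in the authors' deposited table set Calr, Canx and Pdia3 above the MHC genes proper, but not tapasin (Tapbp). Calr and Canx, chaperones of glycoproteins in the endoplasmic reticulum, had mean normalized counts of 24801 and 12312 in the authors' deposited table, and Pdia3 had 2983. H2-D1, B2m and H2-K1 had means of 432, 400 and 125 in the authors' deposited table, which divided by exon length comes to 167, 465 and 42.7 per kilobase. In the same way Calr, Canx and Pdia3 came to 8612, 2624 and 950 per kilobase. Tapbp had a mean of 865 in the authors' deposited table, or 238 per kilobase, between H2-D1 and B2m. Class II chains were at the lower end of the authors' deposited table, H2-Ab1 at 8.98 and H2-Eb1 at 4.61, as was Cd74 at 6.33, while the protease gene Ctss stood at 976. Cd40, Cd86 and Cd80 had means of 5.26, 4.48 and 3.04 in the authors' deposited table, whose lowest mean is 3.03. In all, 9 of the 27 genes had a mean under 10.

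The immunoproteasome was uneven in these cultures. With the means of the authors' deposited table divided by exon length, Psmb8 and Psmb9 stood at 4.40 and 1.87 per kilobase, against 244 and 2983 for their constitutive counterparts Psmb5 and Psmb6. Computed in the same way from the authors' deposited table, Psmb10 stood at 586 per kilobase, above its counterpart Psmb7 at 171. So Psmb8 and Psmb9 were below their counterparts in the OPC cultures and above them in the macrophage libraries. Psmb10 was above its counterpart in both. The exon lengths used here may differ from those behind the authors' TPM, so the sizes of these gaps are not compared between sources. Without division by length, Psmb10 had a mean of 999 and Psmb7 of 585 in the authors' deposited table.

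No change of a listed gene with Apc deletion passed the test in the authors' deposited table. Ctss had the smallest p of the 27 in the authors' deposited table, at a log2 fold change of 0.72 (SE 0.244, p = 0.00301, adjusted p = 0.303), and B2m followed at 0.55 (SE 0.262, p = 0.0345, adjusted p = 0.99999). H2-K1 and H2-D1 stood at 0.41 (SE 0.346) and 0.30 (SE 0.191) in the authors' deposited table, and Tap1 and Psmb8 at 0.43 (SE 0.237) and 0.93 (SE 0.517). Cd74 had the largest value of the 27 in the authors' deposited table, 1.40 (SE 0.795), on a mean of 6.33 normalized counts. These values lie above 0, and none passed the test. Of the 27 genes, 10 stood below 0 in the authors' deposited table. The lowest of these were Cd40 at -0.75 (SE 0.865) and H2-T22 at -0.73 (SE 0.686), on means of 5.26 and 12.9 normalized counts.

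The abundant chaperone genes had the narrowest intervals. For Calr the authors' deposited table gave -0.09, with a 95% interval of -0.31 to 0.13 from its SE, for Canx -0.08 with -0.26 to 0.11, and for Pdia3 0.05 with -0.16 to 0.26. Changes beyond these bounds lie outside the 95% intervals of these 3 genes. For low genes the intervals are wide, such as -1.38 to 2.09 for H2-Eb1 and -2.83 to 1.99 for Cd80 in the authors' deposited table.

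By pathway, 10 class I genes were above and 7 below 0 in the authors' deposited table, with a median log2 fold change of 0.05. The 7 class II genes divided 6 to 1 with a median of 0.31, the 3 costimulation genes 1 to 2 with a median of -0.42, and all genes had a median of 0.00144. Over the 27 genes the median was 0.19, and over the 18 with a mean of at least 10 it was 0.07. Their SEs were wider than those of genes of like mean for Ctss, B2m and H2-K1, by 1.86, 1.69 and 1.58 times the median SE of the 100 genes on either side.

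**Figure D4:**
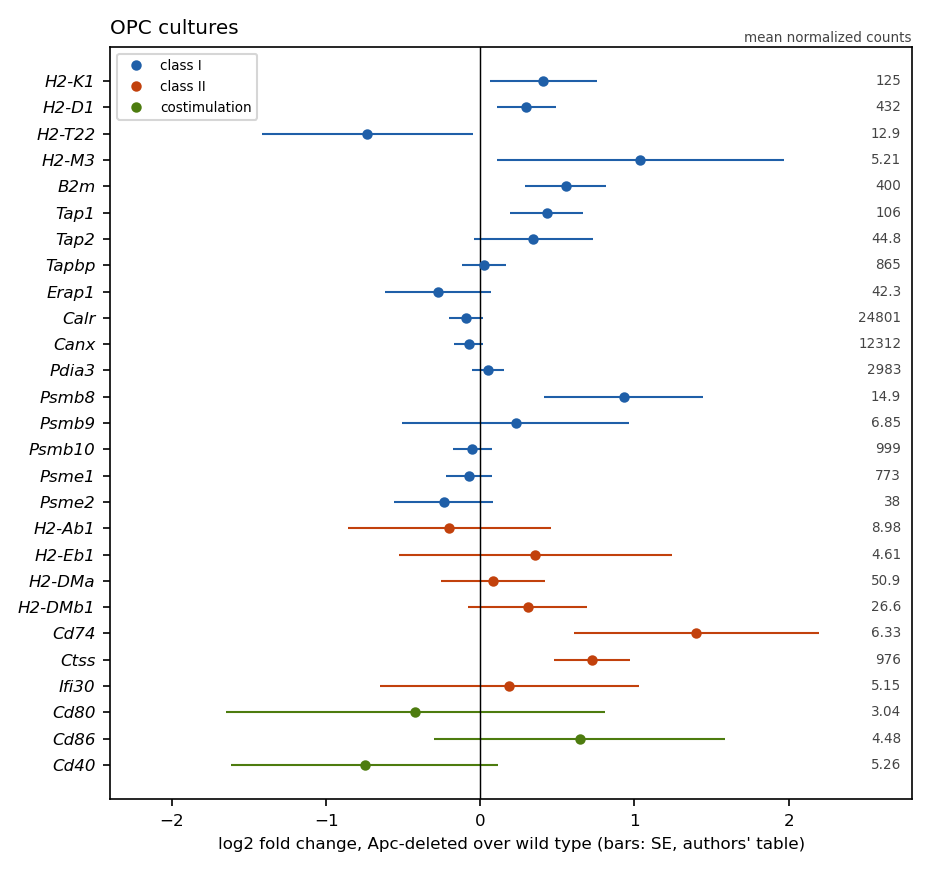
Log2 fold change of Apc-deleted over wild-type OPC cultures for the 27 listed genes, from the authors' deposited table, with bars for its SE and the mean of normalized counts at the right margin. Most bars cross or reach close to 0, the bars are widest for the genes with means under 10, and Ctss stands out at 0.72 with a mean of 976.

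Some phagocyte genes moved in the same table, and their part in the values of Ctss and B2m was not tested. Lyz2 and Cd68 were called higher in the authors' deposited table, at 4.33 (SE 0.963) and 1.54 (SE 0.365). Their SEs were 7.11 and 1.98 times the median SE of genes of like mean. Of the listed macrophage and monocyte markers, 8 of 9 were above 0, with a median of 0.17, against 50.3% and 0.00144 for all genes. Other marker lists leaned either way, such as 0 of 10 neutrophil, 0 of 7 neuron and 6 of 8 OPC markers above 0. Adgre1 at 1.87 (SE 0.654) and Ms4a7 at 1.59 (SE 0.599) were not called. Csf1r, Mertk and Fcgr1 stood at 0.01, 0.0015 and 0.05 in the authors' deposited table. The 9 microglia markers had a median of 0.04, with 5 above and 4 below 0, and none was called. Before adjustment, 3 of these 9 (33.3%) had p below 0.05, against 3.63% of all genes. These were Tmem119 at 0.87 (SE 0.308), Sall1 at 0.85 (SE 0.255) and Trem2 at 0.58 (SE 0.236) in the authors' deposited table. The other endosomal proteases stood above 0 without passing, Ctsd at 0.78 (SE 0.252, adjusted p = 0.228), Ctsb at 0.51 (SE 0.181), Lgmn at 0.51 (SE 0.314) and Ctsl at 0.28 (SE 0.213) in the authors' deposited table. Of 7 interferon gamma response genes none was called, with a median of 0.02, and of 6 RFX and NF-Y genes none, with a median of 0.03. The cultures also held neuron transcripts. With the means of the authors' deposited table divided by exon length, the 7 neuron markers ran from 1195 (Snap25) to 65447 (Tubb3) per kilobase. Computed in the same way, the 8 OPC markers ran from 87.6 (Cspg4) to 5247 (Olig1) per kilobase. Astrocyte, macrophage and endothelial markers were listed too, with mean counts such as 26753 for Slc1a2, 1722 for C1qa and 1163 for Cldn5 in the authors' deposited table. The levels given here are those of the cultures, and which cells carried them was not tested.

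Set side by side, the 3 sources placed the pathways differently within their own tables. The median percentile of level per length was 94.8 for class I and 97.6 for class II genes in the macrophage libraries, and 82.9 for costimulation genes. In the library labelled Th1 it was 93.9 over the 17 class I genes above 0 and 90.6 over 9 class II genes, with 5 class I and 2 class II genes at 0 left out. Only 6550 of its 22064 genes are above 0, so genes with few reads rank high there, H2-Ab1 at 88.2 and H2-Eb1 at 81.6. In the OPC cultures it was 53.1 over 17 class I genes, 18.4 over 7 class II genes and 2.62 over 3 costimulation genes. The tables were normalized separately and hold different gene sets, so these percentiles are descriptions and were not tested. The OPC table omits genes below a mean of 3.03, so the percentiles there are counted among listed genes.

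**Figure D5:**
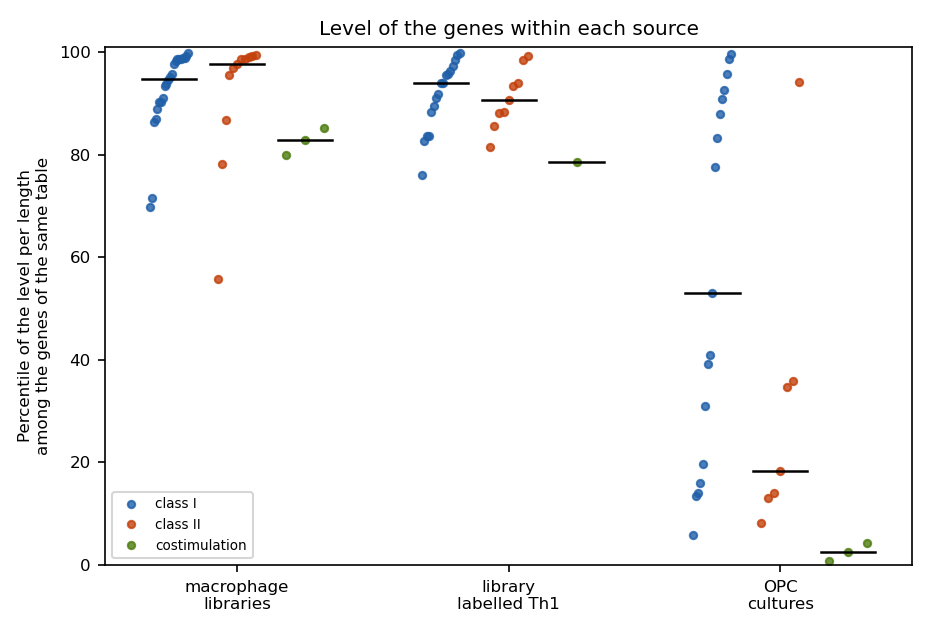
Percentile of each gene's level per length among the genes of its own table, for the macrophage libraries, the library labelled Th1 and the OPC cultures, with points coloured by pathway and a bar at each median. Class II genes sit near the top in the macrophage libraries, with a median of 97.6, and near the bottom in the OPC cultures, with a median of 18.4, where Ctss is the only class II gene above 90.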

How the data were processed

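RNA sequencing covered 10 mouse libraries, with GRCm38 as genome build per the submitters' processing notes, and an aligner and a counter not given in the sources used here. Per the file headers, each sorted library's file holds TPM and estimated counts computed by the authors, and the macrophage files also a normalized count signal deposited beside them. The OPC file is the authors' comparison, with deposited means of normalized counts (a signal), log2 fold changes, SEs, a test statistic (a score), p-values and adjusted p-values. It names no numerator, so the sign was set so that the Wnt targets Notum, Sp5, Lef1 and Axin2 are higher after Apc deletion. 5 columns were not used here.

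Blanks were read as 0 and estimated counts rounded. For the contrast of the Th1-labelled library with the macrophage group, edgeR 4.0.16 was used with TMM scaling, filterByExpr, the quasi-likelihood test and Benjamini-Hochberg adjustment over all genes, and calls needed 4-fold and an adjusted p under 0.05. The script was tested on simulated data. DESeq2 1.42.0, total counts and other fold limits were alternatives. The floor, 3 reads, is 0.983 CPM in the Th1-labelled library and 0.127 to 0.129 CPM in macrophage libraries. Intervals and floors cover counting error only. All 36 genes are named; of the other pathway lists, up to 4 that passed are named per list and direction by smallest p; 1 such gene is not reported here. The genes and lists were chosen with earlier results of these data known. The design had allowed for OPC values per library; the comparison table was used in their place. Lengths and positions come from GENCODE M21, which held 99.81% of OPC identifiers, and promoters from RefSeq. Software was Python 3.11.15 with scipy 1.17.1, pandas 2.3.3, numpy 2.4.6 and matplotlib 3.10.9, and R 4.3.3.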

Additional observations from a re-analysis of the deposited data

How the results depend on the processing

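No paired analysis was possible because the OPC table holds no values per library, and the sorted cells have 1 library labelled Th1 and macrophage columns that match no replicate label. Members called higher in the library labelled Th1 numbered 4 with TMM scaling, 9 with DESeq2 size factors, 9 with the DESeq2 Wald test, 7 at a fold minimum of 2 and 0 with total counts alone. Those called lower numbered 20, against 17 with DESeq2 size factors, 15 with the Wald test, 22 at a fold minimum of 2 or without the filter on low counts, and 24 with total counts. Over all genes, 1567 higher and 6245 lower became 2009 and 3440 with DESeq2 size factors, 1929 and 2488 with the Wald test, and 1098 and 8165 with total counts. Canx, Erap1 and Cd80 lost their call with DESeq2 size factors and with the Wald test, Tap2 and Cd86 lost it with the Wald test, and H2-T23 lost it without a filter on low counts. Leaving out 1 macrophage library at a time changed no member's call. Of 288 alternative values of single members, 247 kept direction and call, 16 gained a call, 13 lost one and 12 changed direction without having a call. The class I to class II ratio of 2.39 was 1.96 from CPM and 0.879 without B2m, an alternative chosen after the data were seen. In the OPC cultures 0 members passed under each of the 3 other thresholds or filters tried. With 3051730 reads, the library labelled Th1 limits what can be read from its low genes.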
